A study of Mus musculus with 6 samples.

Results

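The unfolded protein response and the integrated stress response were followed through 34 genes in cultured mouse epidermal keratinocytes, the cells that build the surface layer of the skin. The genes were chosen by name for their known roles, at a time when earlier results of these data were known. All 34 were found among the 30349 genes of the deposited table. They fall into 13 chaperones and folding helpers of the endoplasmic reticulum (ER), 9 sensors and genes of ER-associated degradation (ERAD), 7 regulators and targets of the integrated stress response, and 5 enzymes of amino acid and one-carbon metabolism that the transcription factor ATF4 controls. RNA came from 3 cultures of the p63 alphaKO genotype (replicates 9, 10 and 11) and 3 wild type cultures (replicates 13, 14 and 15). All were primary cells from mice at postnatal day 2. They had grown to confluency over 5 to 6 days in medium of low calcium (0.05 mM), to which 2.5 ng/mL EGF and 4% chelated serum had been added. Trp63 encodes p63, a transcription factor without which stratified epithelia do not form, and the alpha isoforms are those with the longest C-terminal end. The part of Trp63 that the p63 alphaKO genotype lacks is not given in the sources used here. Nor is it said whether each culture came from its own animal. Levels of Xist and of the Y-linked Ddx3y, given below, differed between libraries of each group. The cultures of a group thus did not all come from the same animal. The p-values measure the spread between these libraries, which may be technical in part.

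As background, proteins bound for the cell surface or for secretion fold in the ER with the help of chaperones such as BiP, the product of Hspa5. When unfolded protein accumulates there, the membrane sensors IRE1 (Ern1), PERK (Eif2ak3) and ATF6 (Atf6) respond. IRE1 splices the Xbp1 mRNA so that it encodes an active transcription factor, ATF6 is cut to release its own, and both raise chaperone and ERAD genes through promoter elements named ERSE and ERSE-II. PERK phosphorylates the initiation factor eIF2, which lowers general translation but favours that of ATF4. ATF4 then raises genes of amino acid supply, redox balance and, through CHOP (Ddit3), cell death, through amino acid response elements (AARE). Differentiating keratinocytes are known to engage parts of this response, and Darier disease is a skin disorder caused by loss of an ER calcium pump. Reads near 3′ ends give a level per gene and do not show Xbp1 splicing, ATF6 cleavage or eIF2 phosphorylation.

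The genes were not chosen by the ERSE, but for roles in a response that acts through it. The ERSE was thus likely to be found among them and is given as description only. It was searched as CCAAT and CCACG with any 9 bases between them (19 in all), on both strands of the 300 bases from 250 before to 50 after each RefSeq gene start (GRCm38.p6). Of the 34 genes 30 had such a promoter in the table, 32 windows in all, and 8 of these genes held the element. Over all 32851 promoters, members included, 39 did (0.119%). The holders were 7 of the 11 chaperones with a promoter (Hspa5, Hsp90b1, Calr, Canx, Pdia6, Creld2 and Dnajc3) and the ERAD ligase gene Syvn1. The windows of the 4 holders with the highest mean level are shown 5′ to 3′ on the gene's strand, with the fixed letters of the element in capitals, and Hsp90b1 carried it on both strands. Syvn1 is added because its difference between the groups had the smallest p, a choice made after its values were seen.
Hspa5 (chr2:34772005-34772063, plus): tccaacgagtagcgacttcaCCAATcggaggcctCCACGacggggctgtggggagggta
Calr (chr8:84847055-84847113, minus): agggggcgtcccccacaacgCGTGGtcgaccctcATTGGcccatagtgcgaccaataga
Canx (chr11:50325780-50325838, minus): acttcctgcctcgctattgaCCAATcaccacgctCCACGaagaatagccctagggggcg
Hsp90b1 (chr10:86705618-86705676, minus): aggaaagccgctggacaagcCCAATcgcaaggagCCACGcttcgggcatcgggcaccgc
Hsp90b1 (chr10:86705513-86705571, minus): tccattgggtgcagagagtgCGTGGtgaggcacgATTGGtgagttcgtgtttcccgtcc
Syvn1 (chr19:6046512-6046570, plus): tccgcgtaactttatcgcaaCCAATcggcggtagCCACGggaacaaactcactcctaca

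The related ERSE-II, searched as ATTGG and CCACG with any 1 base between them (11 in all), was found in 12 of all promoters (0.0365%), of which Herpud1 was the 1 member. The AARE, searched as TGATGNAA, was found in 6 member genes (Chac1, Trib3, Nupr1, Vldlr, Asns and Herpud1) and in 3.97% of all promoters. The UPRE bound by XBP1, searched as TGACGTGG, was in 0.676% of promoters and in no member window. Both strands were searched each time, and a match describes letters and does not show binding. The windows below place the ERSE-II and the AARE of Herpud1 beside the AARE of Chac1 and Nupr1, with the fixed letters in capitals. The AARE lies on the opposite strand in all of them. They are shown because Herpud1 joins both branches and Chac1 and Nupr1 are ATF4 targets, a choice made after values were seen.
Herpud1 ERSE-II (chr8:94386357-94386407, plus): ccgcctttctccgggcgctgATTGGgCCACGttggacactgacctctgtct
Herpud1 AARE (chr8:94386297-94386344, plus): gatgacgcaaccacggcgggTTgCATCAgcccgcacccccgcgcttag
Chac1 AARE (chr2:119351029-119351076, plus): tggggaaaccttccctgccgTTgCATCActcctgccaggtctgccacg
Nupr1 AARE (chr7:126625553-126625600, minus): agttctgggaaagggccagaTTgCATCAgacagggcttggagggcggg

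Every level below is in CPM, the reads of a gene for each 1000000 counted in its library. The p63 alphaKO libraries held 1699716 to 2999246 reads, fewest in replicate 11, and the wild type libraries 3146374 to 3215333. That shallowest library held the highest value for 23.5% of all genes tested and the lowest for 26.3%, more than any other library. Trp63 was at 49.8, 59.3 and 57.0 CPM in p63 alphaKO and at 38.0, 53.2 and 48.9 CPM in wild type, which does not check the genotype since the missing part is not given. Keratinocyte markers (13 genes) summed to 26136 to 36995 CPM in p63 alphaKO and 31067 to 35624 CPM in wild type, with Krt14 at 13252 ± 2514 CPM in p63 alphaKO and 13349 ± 1014 CPM in wild type (SD, n = 3 each). The list was not even, since 11 of its 13 genes lay lower in p63 alphaKO. Krt1, a keratin of differentiating cells, fell to 74.4, 31.0 and 47.6 CPM in p63 alphaKO, against 185.4, 249.3 and 400.9 CPM in wild type (-2.44, SE 0.32, limma adjusted p = 0.00686). Its partner Krt10 (-1.603, limma adjusted p = 0.286) and the basal keratin Krt15 (-2.02, limma adjusted p = 0.299) lay lower without overlap and were not called. On the first principal component (33.2% of the variance) p63 alphaKO replicate 11 was at 61.2 and wild type replicate 15 at 13.6, and the other 4 lay between -26.9 and -8.74. The second (22.9%) separated the groups, at 9.24 to 30.0 in p63 alphaKO and -39.0 to -2.97 in wild type, with these 2 libraries on opposite sides. Wild type replicate 15 had the highest summed level of 25 mitosis genes (3015 CPM, against 1757 and 1976 in replicates 13 and 14 and 1299 to 1581 in p63 alphaKO) and of 10 muscle genes (694 CPM, against 17.4 to 84.6 in the other 5). All 25 mitosis genes lay lower in p63 alphaKO, 13 of them at an unadjusted p under 0.05 and none called. Melanocyte markers (12 genes) summed to 259 to 1151 CPM in p63 alphaKO and 350 to 912 CPM in wild type, lowest in p63 alphaKO replicate 11 and wild type replicate 15. Fibroblast markers (12 genes, 2 to 7 of them listed at 0) summed to 7.65 to 49.3 CPM in p63 alphaKO and 20.0 to 51.2 CPM in wild type, endothelial markers to at most 30.6 CPM and immune markers to at most 1.37 CPM. Xist was read at 673 CPM in p63 alphaKO replicate 11 and 290.6 CPM in wild type replicate 13, the 2 libraries in which Ddx3y, on the Y chromosome, was listed at 0. What part these differences have in the results below was not tested. In such cultures, fewer cells of a type and less RNA per cell cannot be told apart.

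The comparison asks whether ER and integrated stress genes are expressed differently between p63 alphaKO and wild type cultures. None of the 34 genes passed the test, in either direction. Chaperones, sensors, ERAD genes, Atf4 with its targets, and serine and one-carbon enzymes all had differences within the spread between libraries of 1 group, with 1 exception in size, Pdia4. Limma on log2(CPM + 1), adjusted over 11716 genes, gave adjusted p-values of 0.806 to 0.998 for the members. It called 5 of all genes (0.0427%), and no member had an unadjusted p under 0.05, where 745 genes did (6.36%), 3.01% of all genes on the higher and 3.35% on the lower side. edgeR called 0.0171% of genes and DESeq2 0.154%, and neither called a member. By edgeR 1 member, Syvn1, had an unadjusted p under 0.05, beside 6.15% of genes, and by DESeq2 none had, beside 5.54%.

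The size of a missed difference can be bounded for most of these genes. The 95% interval of the log2 fold change (p63 alphaKO minus wild type, unadjusted) lay within 2-fold either way for 27 of the 34 genes, against 5848 of the 11716 tested (49.9%), and within 1.5-fold for 11. The 7 others were Syvn1, Ern1, Eif2ak3, Chac1, Vldlr, Sdf2l1 and Creld2, and the widest interval was that of Ern1, from -1.16 to 1.81. The log2 fold change was below 0 for 23 genes and above 0 for 11, with a median of -0.07, beside a median of 0.006 over all genes tested. In 33 of the 34 genes, the range between libraries of at least 1 group was wider than the difference between the groups. That count was not made over all genes, so it is not a trait of the members. Their median SD within groups (log2 scale) was 0.264, beside a median absolute log2 fold change of 0.126. Over all genes tested these were 0.404 and 0.249. These comparisons with all genes were not matched for level. A mean of at least 5 CPM was reached by 33 of the 34 genes, but by 9443 of the 11716. Narrower intervals and smaller SDs are thus not shown to be a trait of the members.

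**Figure D1:**
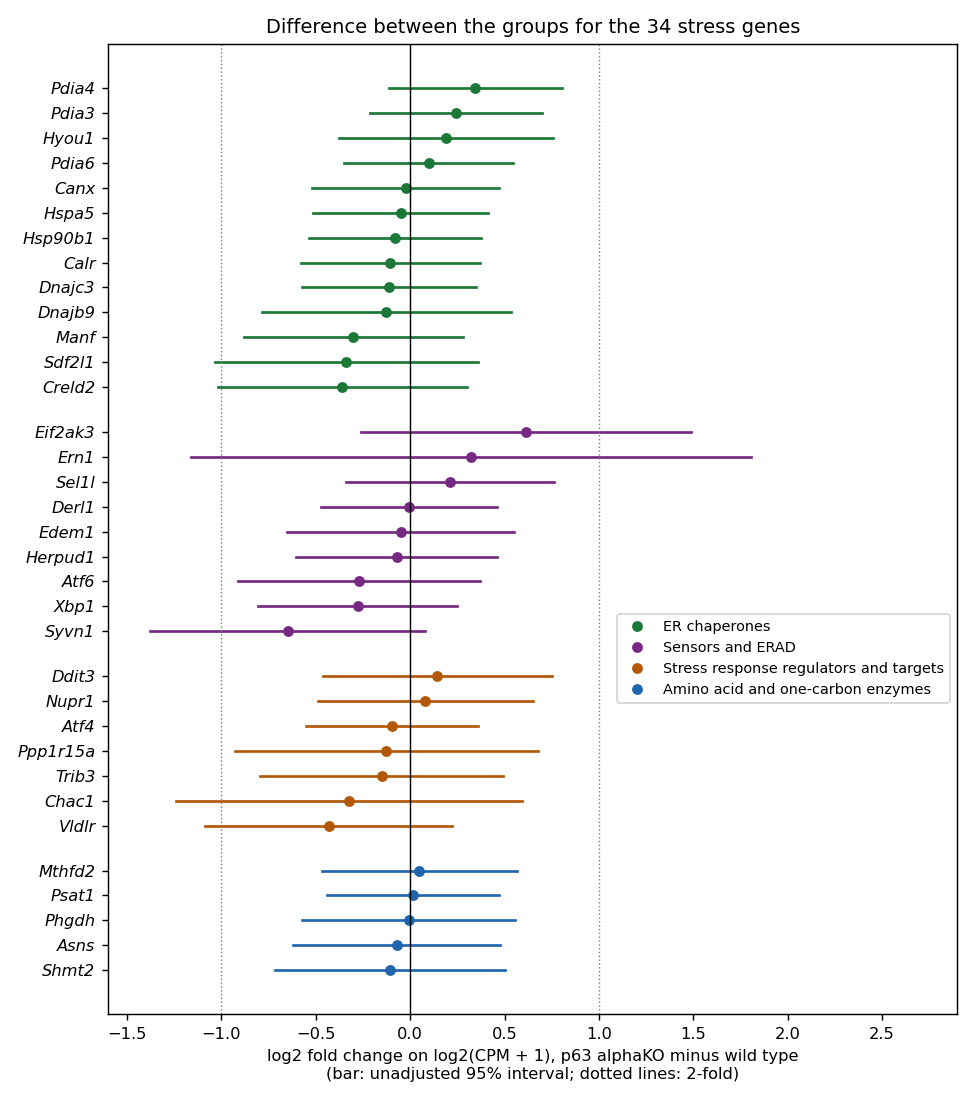
The log2 fold change of each gene (point) with its unadjusted 95% interval (bar), on log2(CPM + 1), for p63 alphaKO minus wild type with 3 libraries each; genes run down the page by group. Every interval crosses 0, and 27 of the 34 lie between the dotted lines that mark 2-fold.

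Among the ER chaperones, the abundant ones hardly differed. Hspa5 encodes BiP, the chaperone that binds unfolded chains and holds the sensors inactive. It was at 1746, 1888 and 2439 CPM in p63 alphaKO and 2025, 2137 and 2062 CPM in wild type, a log2 fold change of -0.05 (95% interval -0.52 to 0.41). The p63 alphaKO libraries thus lay on both sides of a narrow wild type range. Hsp90b1, the ER member of the HSP90 family, was at 650.3, 915 and 716 CPM in p63 alphaKO and 809, 865 and 718 CPM in wild type (-0.08). Calr, the calcium-binding lectin chaperone calreticulin, was at 1151, 1339 and 1283 CPM in p63 alphaKO and 1133, 1254 and 1734 CPM in wild type (-0.11). Wild type replicate 15 alone stood high for Calr. Canx, the membrane-bound lectin chaperone calnexin, was at 792, 1002 and 560 CPM in p63 alphaKO and 822, 816 and 696 CPM in wild type (-0.02), and the p63 alphaKO libraries enclosed the wild type ones.

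Of the 34 genes 3 encode protein disulfide isomerases, which form and rearrange disulfide bonds. Pdia4 was at 171.7, 210.9 and 172.2 CPM in p63 alphaKO and 156.2, 134.3 and 144.5 CPM in wild type. All 3 p63 alphaKO libraries were above all wild type ones, and the log2 fold change was 0.34 (SE 0.22, 95% interval -0.11 to 0.80, limma adjusted p = 0.858). Pdia4 was the 1 member that lay higher without overlap, as 756 genes did (6.45%), and Xbp1 the 1 that lay lower, as 596 did (5.09%). Pdia3, which works with the lectin chaperones on glycoproteins, was at 562, 643 and 749 CPM in p63 alphaKO and 557, 469 and 625 CPM in wild type (0.24). Pdia6, which also acts on the IRE1 sensor, was at 256, 319 and 325 CPM in p63 alphaKO and 273, 261 and 303 CPM in wild type (0.10). For both the groups overlapped. Isomerases outside the 34 genes had differences of either sign, with P4hb at -0.06, Erp44 at -0.10 and Pdia5 at 0.90, none called. Pdia5 rests on few reads, 19, 6 and 8 in p63 alphaKO and 2, 8 and 11 in wild type. Exons of Pdia6 share 50 bases with Atp6v1c2 on the other strand (GENCODE vM21), and the counting is not stated to use strand, so reads in that stretch cannot be told apart.

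Secreted and accessory helpers were uneven within p63 alphaKO. Manf, a secreted ER protein that leaves cells under stress, was at 80.8, 137.6 and 194.6 CPM in p63 alphaKO against 160.9, 159.5 and 158.8 CPM in wild type. The wild type libraries agreed within 1.01-fold, whereas p63 alphaKO replicate 11 was 2.41-fold above replicate 9, and the difference of the means was not called (-0.30, 95% interval -0.88 to 0.28). Sdf2l1, a partner of BiP that slows aggregation, had the same shape, at 18.3, 36.7 and 50.6 CPM in p63 alphaKO and 42.4, 45.1 and 36.9 CPM in wild type (-0.34). Creld2, an isomerase-like ER protein, was at 14.6, 22.0 and 20.0 CPM in p63 alphaKO and 21.7, 30.5 and 21.3 CPM in wild type (-0.36). In these genes the lowest library was p63 alphaKO replicate 9. Exons of Manf share 166 bases with an antisense gene and 14 with Rbm15b on the same strand.

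Hyou1 and the J-domain co-chaperones differed little between the groups, though Hyou1 spanned 1.55-fold within wild type. Hyou1, a large HSP70-like chaperone that exchanges nucleotide on BiP, was at 44.8, 49.3 and 49.96 CPM in p63 alphaKO and 55.9, 36.1 and 36.5 CPM in wild type (0.19). Dnajb9, which brings BiP to IRE1 and to ERAD clients, was at 17.8, 14.3 and 19.4 CPM in p63 alphaKO and 19.8, 16.5 and 20.0 CPM in wild type (-0.13), and 6.57% of the 50-base stretches of its 3′ end occur in 1 other gene. Dnajc3, also named p58IPK and known to restrain eIF2 kinases, was at 129.7, 143.3 and 154.0 CPM in p63 alphaKO and 138.9, 151.7 and 171.5 CPM in wild type (-0.11). The groups overlapped for each.

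Over the 13 chaperones the median log2 fold change was -0.08, with 4 above and 9 below 0 and none called. The 8 genes with an ERSE in their promoter ranged from -0.65 (Syvn1) to 0.10 (Pdia6). Without p63 alphaKO replicate 9, the chaperone median was 0.035, and this library held the lowest value for 7 of the 13 genes, as it did for 13.7% of all genes tested.

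**Figure D2:**
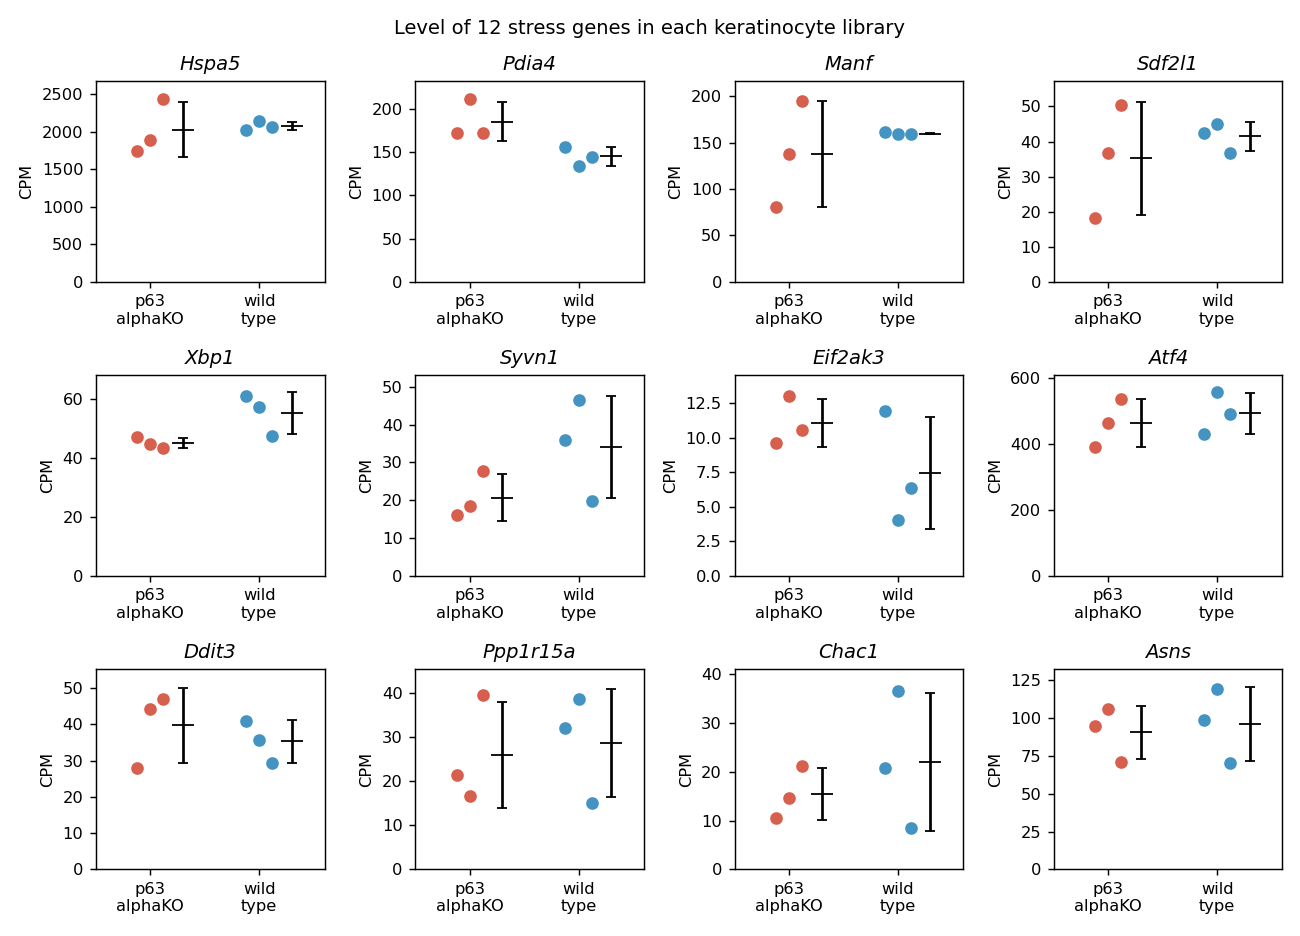
CPM of 12 of the genes in each library (dots), with the mean and SD of each group (black, n = 3), p63 alphaKO left and wild type right; the axes start at 0 and differ between panels. Pdia4 and Xbp1 are the genes whose groups do not overlap, and Manf and Sdf2l1 are spread in p63 alphaKO but tight in wild type.

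The sensors themselves were read at low levels. Ern1, encoding IRE1, had 3, 23 and 2 reads in p63 alphaKO (1.37, 7.66 and 1.18 CPM) and 9, 16 and 0 reads in wild type (2.83, 4.97 and 0 CPM). At this depth a count of 0 in wild type replicate 15 allows up to 0.953 CPM, and no difference was detectable for Ern1. Eif2ak3, encoding PERK, had 21, 39 and 18 reads in p63 alphaKO (9.59, 13.0 and 10.6 CPM) and 38, 13 and 20 reads in wild type (11.9, 4.04 and 6.35 CPM). Its log2 fold change was 0.61 (SE 0.42, 95% interval -0.26 to 1.49, limma adjusted p = 0.881), and wild type replicate 13 lay within the p63 alphaKO range. Atf6 was at 16.4, 20.0 and 18.8 CPM in p63 alphaKO and 21.7, 27.0 and 19.1 CPM in wild type (-0.27), with the lowest wild type library inside the p63 alphaKO range.

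Xbp1, the transcript that IRE1 splices, was at 47.0, 44.7 and 43.5 CPM in p63 alphaKO against 61.0, 57.2 and 47.3 CPM in wild type. The groups did not overlap, though wild type replicate 15 was only just above p63 alphaKO replicate 9. The difference was -0.28 (SE 0.25, 95% interval -0.81 to 0.25, limma adjusted p = 0.919), smaller than the range between the wild type libraries.

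ERAD carries misfolded proteins out of the ER to the proteasome. Syvn1, encoding the ubiquitin ligase HRD1 at the centre of one ERAD complex, had the smallest p among the members. It was at 16.0, 18.3 and 27.6 CPM in p63 alphaKO and 35.8, 46.6 and 19.7 CPM in wild type, 20.6 ± 6.16 CPM against 34.05 ± 13.6 CPM (SD, n = 3 each). The log2 fold change was -0.65 (SE 0.35, 95% interval -1.38 to 0.08, unadjusted p = 0.0771, limma adjusted p = 0.806). Wild type replicate 15 fell among the p63 alphaKO libraries. Exons of Syvn1 share 91 bases with Mrpl49 on the other strand, which was at a mean of 31.2 CPM, so some reads may belong to either gene. Sel1l, the adaptor that holds HRD1 in place, had a positive difference, at 132.9, 128.6 and 74.1 CPM in p63 alphaKO and 108.4, 82.1 and 91.2 CPM in wild type (0.21).

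The remaining ERAD genes showed little difference. Herpud1, a membrane protein that supports HRD1, was at 60.7, 49.0 and 78.8 CPM in p63 alphaKO and 63.5, 65.9 and 65.1 CPM in wild type (-0.07). Edem1, which marks misfolded glycoproteins, was at 23.8, 38.7 and 34.7 CPM in p63 alphaKO and 36.8, 32.0 and 30.2 CPM in wild type (-0.05). Derl1, a channel-like component of ERAD, was at 101.4, 109.3 and 98.2 CPM in p63 alphaKO and 98.0, 107.3 and 104.5 CPM in wild type (-0.005, 95% interval -0.47 to 0.46). For the 9 genes of this group the median was -0.05, with 3 above and 6 below 0.

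In the integrated stress response, Atf4 mRNA was at 390.0, 463 and 537 CPM in p63 alphaKO and 431, 557 and 491 CPM in wild type (-0.09, 95% interval -0.55 to 0.36). ATF4 is controlled mainly at translation, which mRNA levels do not report. Ddit3, encoding the death-associated factor CHOP, was at 27.9, 44.3 and 47.0 CPM in p63 alphaKO and 40.9, 35.8 and 29.2 CPM in wild type (0.14). The Ddit3 locus shares 68 exon bases with Mars on the other strand. Trib3, a pseudokinase that CHOP and ATF4 induce, was at 19.2, 19.7 and 17.6 CPM in p63 alphaKO and 17.9, 25.8 and 20.0 CPM in wild type (-0.15). In each of these the groups overlapped.

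Ppp1r15a and Chac1 varied more within the groups than between them. Ppp1r15a encodes GADD34, which reverses eIF2 phosphorylation. It was at 21.5, 16.7 and 39.4 CPM in p63 alphaKO and 32.1, 38.6 and 14.9 CPM in wild type (-0.13, 95% interval -0.93 to 0.68). Chac1, an enzyme that degrades glutathione and a target of ATF4, was at 10.5, 14.7 and 21.2 CPM in p63 alphaKO and 20.7, 36.7 and 8.58 CPM in wild type (-0.33, 95% interval -1.24 to 0.59). Wild type replicate 14 was 4.28-fold above replicate 15 for Chac1, and for Ppp1r15a 2.58-fold. In both genes p63 alphaKO replicate 11 was the highest of its group and wild type replicate 15 the lowest of all 6. Their differences turned positive without wild type replicate 14 (0.14 for each), and that of Ppp1r15a also without wild type replicate 13 (0.0061) or p63 alphaKO replicate 10 (0.13).

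Nupr1, a small stress-induced chromatin protein, was at 47.5, 40.3 and 34.1 CPM in p63 alphaKO and 44.6, 32.6 and 37.8 CPM in wild type (0.08). Vldlr, the very low density lipoprotein receptor and a gene raised through PERK and ATF4, was at 14.2, 17.7 and 24.7 CPM in p63 alphaKO and 23.6, 25.2 and 26.7 CPM in wild type (-0.43, SE 0.31, limma adjusted p = 0.885). For Vldlr, p63 alphaKO replicate 11 reached into the wild type range. The median over the 7 regulators and targets was -0.13, with 2 above and 5 below 0.

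The amino acid and one-carbon enzymes gave the tightest group of differences, from -0.11 to 0.05. Their libraries were not the tightest, with a median SD within groups (log2 scale) of 0.308. That SD was 0.208 for the chaperones, 0.272 for sensors and ERAD genes and 0.278 for the regulators and targets. Asns, asparagine synthetase, was at 94.5, 105.6 and 71.1 CPM in p63 alphaKO and 98.7, 118.8 and 70.5 CPM in wild type (-0.07). Serine synthesis was represented by Phgdh, at 51.2, 45.3 and 77.0 CPM in p63 alphaKO and 62.8, 59.1 and 48.9 CPM in wild type (-0.008), and by Psat1. Psat1 was at 232.9, 226.9 and 287.4 CPM in p63 alphaKO and 245.7, 277.6 and 215.4 CPM in wild type (0.02). Part of the Phgdh 3′ end (49.4% of its 50-base stretches) occurs in other annotated genes, chiefly a processed pseudogene, so its reads are less certain.

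The mitochondrial folate enzymes behaved alike in wild type. Mthfd2 was at 97.3, 123.6 and 114.6 CPM in p63 alphaKO and 131.7, 116.9 and 81.0 CPM in wild type (0.05). Shmt2, which feeds it with one-carbon units from serine, was at 91.3, 144.0 and 67.0 CPM in p63 alphaKO and 126.6, 114.7 and 75.9 CPM in wild type (-0.11). Wild type replicate 15 was the lowest of its group for all 5 enzymes, and the 95% intervals of all 5 lay within 2-fold.

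**Figure D3:**
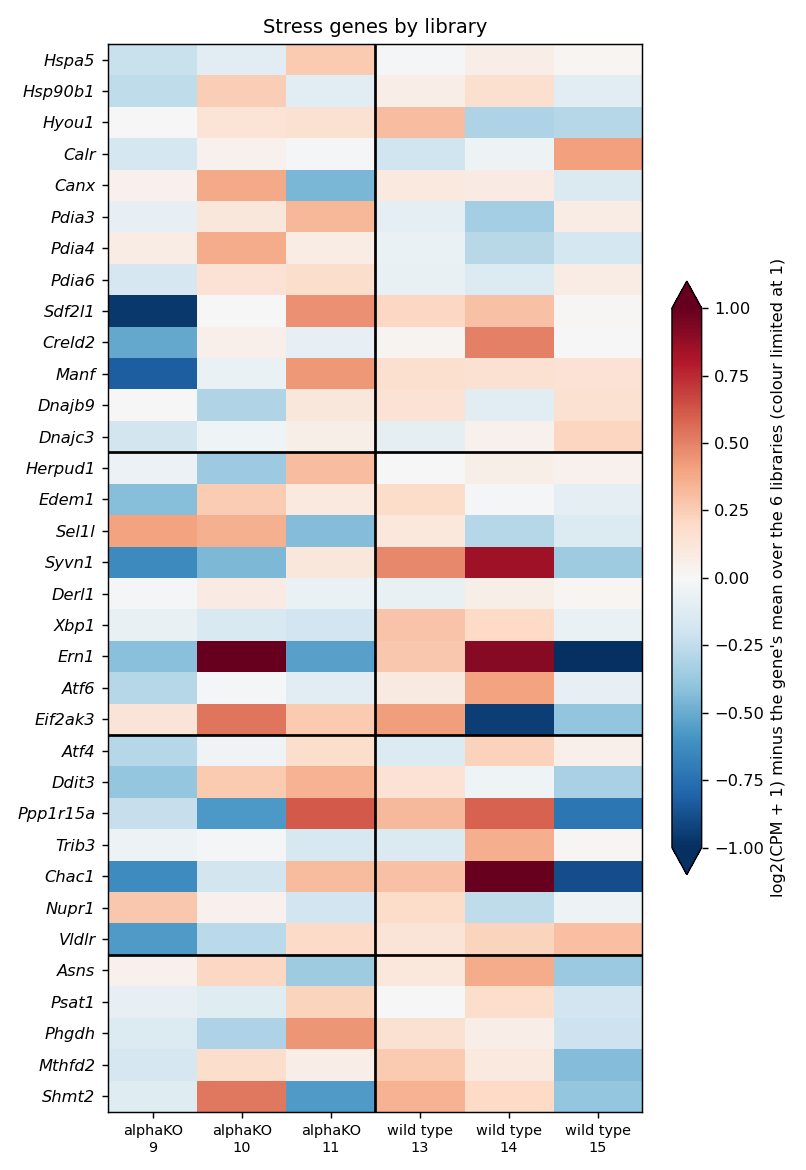
Each gene's log2(CPM + 1) minus its own mean over the 6 libraries, with p63 alphaKO columns left of wild type columns and lines between the 4 gene groups; red is above and blue below that mean, with the colour limited at 1. Neighbouring libraries of 1 group differ as much as the groups do, with low values in p63 alphaKO replicate 9 for Sdf2l1 and Manf and in wild type replicate 15 for Chac1 and Ppp1r15a.

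The gene groups differed in which libraries were low. The mean deviation of the chaperones from their gene means (log2 scale) was -0.25, 0.07 and 0.11 in p63 alphaKO replicates 9, 10 and 11 and 0.04, 0.005 and 0.03 in wild type replicates 13, 14 and 15. One library, p63 alphaKO replicate 9, was thus low and the other 5 were level, and the other gene groups were below 0 in it too. The stress response regulators were at -0.27, -0.11 and 0.18 in p63 alphaKO and 0.11, 0.31 and -0.23 in wild type. The amino acid enzymes were at -0.09, 0.10 and -0.04 in p63 alphaKO and 0.17, 0.18 and -0.32 in wild type, and sensors and ERAD genes were at -0.16, 0.19 and -0.06 in p63 alphaKO and 0.20, 0.14 and -0.30 in wild type. In these 3 groups wild type replicate 15 was below the other wild type libraries, while its chaperones were not. Sensors with ERAD genes and the enzymes had the same sign in each of the 6 libraries. The same means over all 11716 genes were between -0.02 and 0.03.

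**Figure D4:**
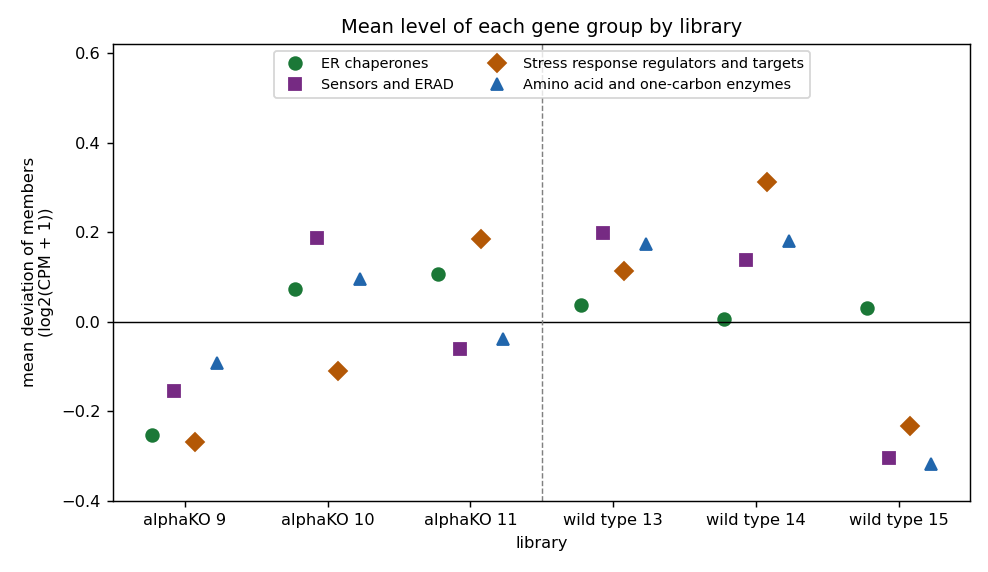
Mean deviation of the members of each gene group (13 chaperones, 9 sensors and ERAD genes, 7 regulators and targets, 5 enzymes) from their gene means over the 6 libraries, on log2(CPM + 1), by library, p63 alphaKO left. The chaperones are low in p63 alphaKO replicate 9, at -0.25, and the other 3 groups are low in wild type replicate 15, between -0.32 and -0.23.

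Without p63 alphaKO replicate 11 and wild type replicate 15, the 2 libraries above 0 on the first principal component, several differences were larger. No member passed here either, where 48 of 11627 genes were called (0.413%). At an unadjusted p under 0.05 there were 7 members, beside 9.33% of all genes. Syvn1 was at a mean of 17.2 CPM in the 2 remaining p63 alphaKO libraries and 41.2 CPM in the 2 wild type ones (log2 fold change -1.21, SE 0.30, limma adjusted p = 0.111). Chac1 was at 12.6 CPM in p63 alphaKO and 28.7 CPM in wild type (-1.09, adjusted p = 0.302), and Ppp1r15a at 19.1 CPM in p63 alphaKO and 35.3 CPM in wild type (-0.86, adjusted p = 0.334). All 3 are over 1.5 times as large as with every library. For each of them p63 alphaKO replicate 11 was the highest of its group and wild type replicate 15 the lowest of its own. Leaving both out thus had to enlarge these differences. The 2 libraries were also picked on these same data, so the growth is description only. Leaving out wild type replicate 15 alone gave -0.99 for Syvn1, -0.85 for Chac1 and -0.52 for Ppp1r15a, and leaving out p63 alphaKO replicate 11 alone gave -0.87, -0.57 and -0.47. Eif2ak3 was at 0.98 without wild type replicate 13 (limma adjusted p = 0.903).

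The others of these 7 were chaperone and ERAD genes of either sign. Manf stood at 109.2 CPM in p63 alphaKO and 160.2 CPM in wild type (-0.60), and Sdf2l1 at 27.5 CPM in p63 alphaKO and 43.7 CPM in wild type (-0.73). On the positive side Sel1l was at 130.8 CPM in p63 alphaKO and 95.2 CPM in wild type (0.47). Pdia4 was at 191.3 CPM in p63 alphaKO and 145.2 CPM in wild type (0.39). Their adjusted p-values were 0.362, 0.468, 0.482 and 0.533 by limma. All 5 enzymes were then below 0, with a median of -0.18. Without p63 alphaKO replicate 9 alone, the differences were 0.035 for Manf and 0.059 for Sdf2l1. Without p63 alphaKO replicate 11 alone they were -0.59 and -0.65, so both depend on which library is left out. In both genes p63 alphaKO replicate 10 also lay below every wild type library, while replicate 11 lay above them. The fit without both libraries rests on 2 a group, and it leaves Xist read in wild type replicate 13 and in no p63 alphaKO library, so that it is not balanced for sex. What part this has in its values was not tested.

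**Figure D5:**
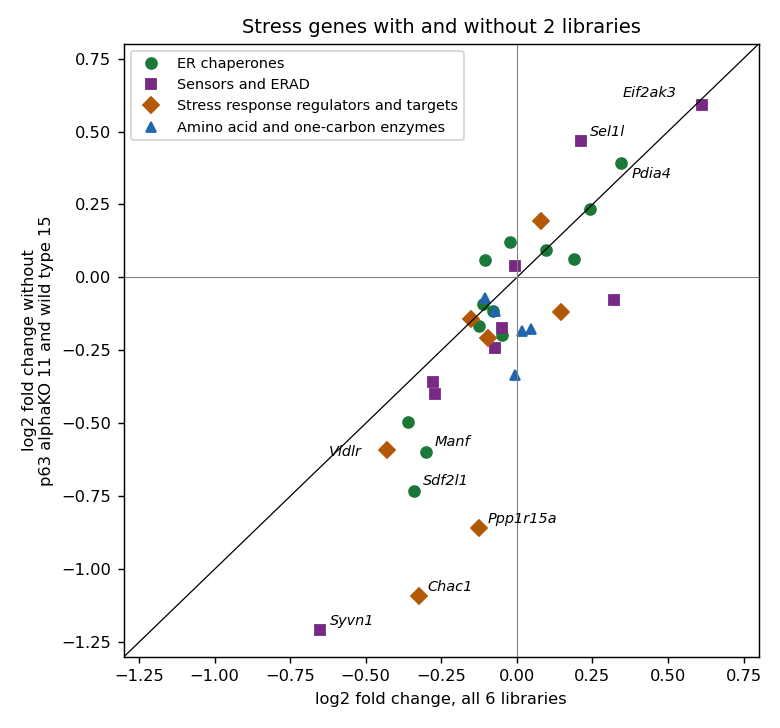
Log2 fold change of each gene (p63 alphaKO minus wild type) with all 6 libraries (horizontal axis) and without p63 alphaKO replicate 11 and wild type replicate 15 (vertical axis); the diagonal marks equal values. Syvn1, Chac1 and Ppp1r15a lie furthest below the diagonal, at -1.21, -1.09 and -0.86 on the vertical axis. For these genes the libraries left out held the highest p63 alphaKO and the lowest wild type value, so the differences had to grow.

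Other genes of the same pathways were counted from lists that hold none of the 34. Of 30 further genes of ER folding, translocation and glycosylation, all tested, none was called and none had an unadjusted p under 0.05. Their median was 0.04, with 16 above and 14 below 0. The smallest p-values were those of Cnpy3 (0.51), Pdia5 (0.90), Fkbp2 (-0.40) and the translocon-associated Ssr4, at 306.9, 377.2 and 541.3 CPM in p63 alphaKO and 312.0, 281.3 and 376.4 CPM in wild type (0.31). The groups overlapped for all 4.

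Of 28 further sensors and ERAD genes 27 were tested, with none called, 18 above and 9 below 0 and a median of 0.05. Erlin1, an ER membrane protein that helps remove activated receptors, was the 1 gene at an unadjusted p under 0.05, where 6.36% of all genes were. It was at 6.85, 9.66 and 9.40 CPM in p63 alphaKO and 16.7, 17.1 and 15.9 CPM in wild type, without overlap (-0.88, SE 0.34, limma adjusted p = 0.732). Creb3l2 (0.51), Edem3 (0.40) and Ube2j1 (-0.34) followed, of which Edem3 lay higher without overlap. Mbtps1 (0.29) and Ubxn4 (0.19) also lay higher without overlap, and Mbtps2 (-0.12) lower. Of the 27 genes 3 thus lay higher and 2 lower without overlap, beside 6.45% and 5.09% of all genes.

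Among 44 further genes of the integrated stress response, including amino acid transporters and aminoacyl-tRNA synthetases, none was called, 15 lay above and 29 below 0, and the median was -0.09. Unadjusted p-values under 0.05 were found for 4 of the 44, beside 6.36% of all genes. Gadd45a, a growth arrest gene, was at 17.4, 14.7 and 25.3 CPM in p63 alphaKO and 10.1, 9.33 and 7.94 CPM in wild type (0.96, limma adjusted p = 0.716). Cebpb, a partner of ATF4, was at 37.0, 37.7 and 20.6 CPM in p63 alphaKO and 55.3, 59.1 and 40.3 CPM in wild type (-0.71, adjusted p = 0.758). Atf3 had 3, 3 and 2 reads in p63 alphaKO and 14, 10 and 15 reads in wild type (-1.21, limma adjusted p = 0.758). The groups did not overlap for Gadd45a, Cebpb and Atf3, nor for Cbs and Aldh1l2, both higher in p63 alphaKO. Cbs rests on few reads, 6, 14 and 5 in p63 alphaKO and 6, 4 and 1 in wild type. Of the 44 genes 3 thus lay higher and 2 lower without overlap, beside 6.45% and 5.09% of all genes. Aldh18a1, which makes proline precursors, was at 11.0, 9.66 and 4.70 CPM in p63 alphaKO and 26.1, 20.5 and 8.26 CPM in wild type (-0.96), with overlap. Atf3 is also known as an early response gene of handled cells. A list of 16 other such genes summed to 2139 to 2744 CPM in p63 alphaKO and 2343 to 2684 CPM in wild type, and 12 of the 15 tested lay below 0, none called. What part handling has in these values was not tested.

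Slc7a5, the large neutral amino acid transporter that ATF4 raises, was called in the fit without p63 alphaKO replicate 11 and wild type replicate 15. It was at 41.6, 47.7 and 32.9 CPM in p63 alphaKO and 90.2, 104.5 and 31.8 CPM in wild type (-0.72, limma adjusted p = 0.794), with wild type replicate 15 below every p63 alphaKO library. Without that library and p63 alphaKO replicate 11 the means were 44.6 CPM in p63 alphaKO and 97.3 CPM in wild type (-1.11, SE 0.22, limma adjusted p = 0.0298). Slc7a5 was named after its values were seen, and that fit is not balanced for sex. It was the 1 gene called of the 44, where that fit called 0.413% of all genes. The 2 libraries left out were picked by their place on the first principal component of these same data, so the call is description only.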

How the data were processed

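The deposited values are CPM, as read from the table itself: per the labels each of the 6 columns is 1 library, each sums to just under 1000000, and 100% came out as whole reads (within 0.1 read). The submitters' processing notes name STAR, HTSeq and mm10. Not given in the sources used here are their roles and versions, the annotation, filters, the strand setting and any molecular identifiers. Without molecular identifiers, floors (3 reads) cover counting error only.

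The test took genes at or above a mean of 1 CPM, with limma 3.58.1 (R 4.3.3, mean-variance trend) on log2(CPM + 1), two-sided, with Benjamini-Hochberg adjustment over all 11716 genes and a threshold of 0.05. A pseudocount of 1 understates changes of low genes. The intervals quoted are limma's at 95%, unadjusted. edgeR 4.0.16 and DESeq2 1.42.0 were run on the recovered reads. The test was tried on simulated data that gave every gene the same dispersion and no library a shift of its own. That trial does not show what the test can detect in these libraries. The members, lists and tests were chosen with earlier results of these data known, so no list was tested: lists are described by counts and medians beside those of all genes. Members with a mean of at least 20 CPM, without overlap or with a small p were given library by library, as were the rest where reads allowed, and up to 4 genes of smallest p from each other pathway list. Overlaps and 3′ ends are from GENCODE vM21, promoters from RefSeq. Protein sequences were not used here.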

Additional observations from a re-analysis of the deposited data

How the results depend on the processing

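No paired analysis was possible because the groups share no replicate numbers. No member gene was called under any of the 16 alternatives (14 limma fits, edgeR and DESeq2), and the log2 fold change of 14 of the 34 members kept its sign throughout (6 above and 8 below 0); the others crossed 0 at least once, without a call. Over all genes, the test called 4 higher and 1 lower. The higher count was 1 with a pseudocount of 0.5, 2 with a pseudocount of 5, 0 without a filter (limma, with 888 genes at an unadjusted p under 0.05), 1 at a minimum mean of 5 CPM, 1 by edgeR and 10 by DESeq2, which called 8 lower. Without the mean-variance trend both limma counts were 0, with 827 genes at an unadjusted p under 0.05. Leaving out 1 library at a time gave 1 to 3 higher and 1 to 10 lower, the most without p63 alphaKO replicate 11, and leaving out that library with wild type replicate 15 gave 7 higher and 41 lower. The cause was not tested.

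Leaving out 1 library moved the chaperone median between -0.12 and 0.035, the median of sensors and ERAD genes between -0.19 and 0.0054, and that of all members between -0.11 and 0.01. Without p63 alphaKO replicate 11 and wild type replicate 15 the sensor and ERAD median was -0.17. Quantile and TMM scaling moved the median of all genes by under 0.1 and changed the sign of 2 and 1 members. Ern1 and Eif2ak3 are limited by depth, with 28 and 78 reads in p63 alphaKO and 25 and 71 in wild type over all libraries of a group.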
